A study of Mus musculus with 24 samples.

Results

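The muscle atrophy program, the set of genes through which skeletal muscle loses protein mass, was followed in quadriceps femoris muscle of 24 mice. Its 10 genes were chosen by name: the ubiquitin ligase genes Trim63, Fbxo32, Fbxo30 and Fbxo21, the transcription factor genes Foxo1, Foxo3, Foxo4 and Klf15, and the signalling genes Mstn and Traf6. They are 10 of the 18669 genes in the count table, and all 10 were among the 13754 genes tested, which had 2 or more counts in 10 or more libraries. PolyA RNA was sequenced 4 h after treatment from 2 mice in each of 12 groups, made up of 3 genotypes and 4 treatments. Wild type (WT) mice, R6/2 mice, a model of Huntington's disease that carries exon 1 of mutant HTT as a transgene, and Hsf1-/- mice, which lack the heat shock transcription factor HSF1, were all given the strain background CBA x C57BL/6 F1. HS mice were anesthetized with isoflurane and held for 15 minutes at 41.5 °C in a heating pad, and control mice were anesthetized and wrapped for 21 minutes at 36.9 °C. HSP990 mice received 12 mg/kg of the HSP90 inhibitor NVP-HSP990 by oral gavage in methyl cellulose and saline, and vehicle mice received saline by the same route. WT and R6/2 mice were 12 weeks old, while Hsf1-/- mice were 10 weeks old in the HS experiment and 8 weeks old in the HSP990 experiment, so that age and the Hsf1 knockout cannot be told apart.

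Muscle protein is broken down largely by the ubiquitin-proteasome system, in which ligases mark proteins for the proteasome. Insulin and IGF1 act through the kinase Akt to keep FoxO transcription factors out of the nucleus. When this signal is low, FoxO proteins raise the genes of the ligases MuRF1 (Trim63) and atrogin-1 (Fbxo32), which are best known as the markers of atrophy in fasting, denervation and disuse. Glucocorticoids act on the same genes through their receptor and through the zinc finger factor KLF15, while myostatin, made by muscle itself, limits muscle growth through activin receptors and SMAD proteins.

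The table gave a total of 22450177 to 46599238 counts per library. Hsf1 had 21.08 to 28.96 CPM (counts scaled to a fixed library total) in the 8 Hsf1-/- libraries and 45.28 to 68.55 CPM in the 16 others, so the labels of the knockout held, although part of the transcript was still counted. Of the chaperone genes that check the treatments, Hspa1a rose with HS in WT mice from 3.373 and 11.08 CPM to 960.9 and 1063 CPM, and in Hsf1-/- mice it was 3.344 and 2.127 CPM in control and 2.996 and 1.907 CPM in HS mice. All 10 skeletal muscle fibre markers were present in every library, with a summed level of 47900 to 101700 CPM in R6/2 mice and 221600 to 303300 CPM in the others. The counts of 4 Y-linked genes summed to 0 to 4 per library in WT and R6/2 mice of the HS experiment and to 3916 to 9392 in all other groups. In the HS experiment this difference and the Hsf1 knockout cannot be told apart, nor can it be told apart from the experiment when HS and HSP990 are compared in WT or R6/2 mice. Levels below are CPM scaled with TMM, and changes are log2 fold changes ± SE from edgeR's quasi-likelihood test fitted over all 24 libraries, with Benjamini-Hochberg adjustment over all genes tested and genes called at an adjusted p below 0.05. The labels number the mice of a group but do not say how they were kept or sampled together. P-values therefore measure the spread between these mice only. That spread was pooled over all 12 groups, which did not vary alike. Between the raw counts of a group's 2 libraries, chi-square per degree of freedom was 54.31 to 110.2 in R6/2 groups. It was 24.45 to 33.7 in WT groups and 19.42 to 79.13 in Hsf1-/- groups. Where groups are said to be apart or not to overlap, the share of all genes doing so was not counted, and the words describe the values only.

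Positions in mm9 were read from the GENCODE vM1 annotation, and counts cover the transcripts of the whole gene. Trim63 (NCBI gene 433766) lies at chr4:133871035-133885544 on the plus strand and Fbxo32 (67731) at chr15:58011634-58046433 on the minus strand. The ligase genes Fbxo30 (71865) and Fbxo21 (231670) lie on the plus strand at chr10:11001128-11017850 and chr5:118426779-118460200. Foxo1 (56458) is at chr3:52072259-52154031 on the plus strand, Foxo3 (56484) at chr10:41901647-41996561 on the minus strand and Foxo4 (54601) at chrX:98449867-98456212 on the plus strand. Klf15 (66277), Mstn (17700) and Traf6 (22034) lie on the plus strand at chr6:90412570-90425232, chr1:53118507-53124923 and chr2:101518586-101541826. Divided by exon length, the levels in WT control mice fell into an abundant and a scarce set. The abundant set held Fbxo32 with 101 ± 3.87 CPM per kb (SD, n = 2), Trim63 with 94.8 ± 16.6, Foxo4 with 65.8 ± 4.98, Mstn with 57.1 ± 0.685 and Klf15 with 38.4 ± 0.24 CPM per kb. The scarce set held Fbxo21, Traf6, Fbxo30, Foxo3 and Foxo1, with 5.4 to 2.54 CPM per kb in that order.

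The promoters of Trim63 and Klf15 are shown because these were the only members called after HS and also called after HSP990. The calls for HS and for HSP990 came from different genotypes. Neither gene was called for both treatments in the same genotype. RefSeq sequence of GRCm38.p6 was given for 8 of the 10 members and not for Fbxo32 and Foxo4. The 250 bases before the start were searched on both strands for a loose glucocorticoid response element (ACANNNTGT), a FoxO element (GTAAACA), paired heat shock element units (GAANNTTC and TTCNNGAA) and the E-box CACGTG, motifs that were chosen with the values of these genes known. Of the 8 promoters, those of Trim63 and Klf15 held any of these motifs and the others held none. The share of all promoters holding any of these motifs was not counted. Whether these promoters stand out from the background was therefore not tested. Both pieces printed here are the 100 bases from base -250 onward on the plus strand, 5′ to 3′, with motifs in capitals. The first, at chr4:134314870-134314969, holds the glucocorticoid element and, 3 bases further on, the FoxO element, and the second, at chr6:90462326-90462425, holds an E-box, a heat shock element pair and another E-box.
Trim63: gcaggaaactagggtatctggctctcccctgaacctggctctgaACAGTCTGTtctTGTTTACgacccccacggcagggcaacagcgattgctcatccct
Klf15: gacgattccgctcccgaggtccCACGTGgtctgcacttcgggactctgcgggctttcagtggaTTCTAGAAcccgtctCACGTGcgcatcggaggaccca
In Trim63 the matches were ACAGTCTGT at bases -206 to -198 and TGTTTAC at -194 to -188, and in Klf15 they were CACGTG at -228 to -223 and at -172 to -167 and TTCTAGAA at -187 to -180. Among 32851 promoter windows of 250 bases, 5.84% held the glucocorticoid element, 3.17% the FoxO element, 6.69% GAANNTTC, 7.17% TTCNNGAA and 6.02% CACGTG. The glucocorticoid element and the FoxO element stood together in 0.265% of the windows, and with at most 10 bases between them in 0.119%. A match describes these letters only, and binding was not measured.

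Heat shock raised Trim63, Foxo1 and Klf15 in WT mice. These 3 of 10 members were called, all higher, beside 2.06% of all genes tested. The 10 members had a median log2 change of 0.43, beside -0.01 for all genes. Trim63, which encodes the ligase MuRF1 of the sarcomere, had 235.9 and 302.7 CPM in the control mice and 1520 and 928.0 CPM in the HS mice. The groups were apart, with 4.55 times the mean level after HS, although the HS mice differed from each other. The log2 change was 2.18 ± 0.35 (adjusted p = 0.0032, n = 2 per group). Foxo1, whose protein turns on ligase genes when Akt is inactive, rose from 12.73 and 15.45 CPM to 78.99 and 76.37 CPM, a log2 change of 2.46 ± 0.54 (adjusted p = 0.022). Klf15, a target of the glucocorticoid receptor that controls amino acid catabolism, rose from 96.55 and 97.41 CPM to 279.4 and 266.1 CPM, by 1.49 ± 0.25 on the log2 scale (adjusted p = 0.004). In both genes the mice within a group lay close together and far from the other group.

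The remaining 7 members did not pass the test in WT mice after HS. The FoxO family member Foxo3, a regulator of both proteasomal and autophagic breakdown, came nearest, with 25.99 and 26.31 CPM in control and 42.89 and 49.08 CPM in HS mice (log2 change 0.81 ± 0.23, adjusted p = 0.078). Mstn had 151.9 and 154.5 CPM in control and 229.3 and 205.5 CPM in HS mice, also without overlap (0.50 ± 0.24, adjusted p = 0.43). Fbxo32, the atrogin-1 gene usually paired with Trim63, had 268.2 and 283.0 CPM against 403.1 and 299.7 CPM (0.35 ± 0.32, adjusted p = 0.76). One HS mouse stood above the others and the second lay next to the controls. For Traf6, Fbxo21, Foxo4 and Fbxo30 the log2 changes were at most 0.30, with adjusted p of 0.44 to 1.0. The calls depended on single mice. Without WT control replicate 1 none of the 3 was called, with adjusted p of 0.097 for Trim63, 0.25 for Foxo1 and 0.09 for Klf15. Without WT control replicate 2 Klf15 (0.061) and Foxo1 (0.16) were lost, and Foxo1 was also lost without either HS mouse (0.083 and 0.1). A fit of the 4 libraries compared called 5 members, adding Foxo3 (0.0071) and Mstn (0.032). Of the markers of other cell types, all 5 adipocyte genes were lower after HS and none was called, with overlapping sums of 186.9 to 541.7 CPM in control and 138.8 to 283.0 CPM in HS mice. The sums of fibre markers (225600 to 236000 against 240100 to 275900 CPM) and smooth muscle markers (162.7 to 178.0 against 178.9 to 183.7 CPM) were higher without overlap. The part of these markers in the members' values was not tested.

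**Figure D1:**
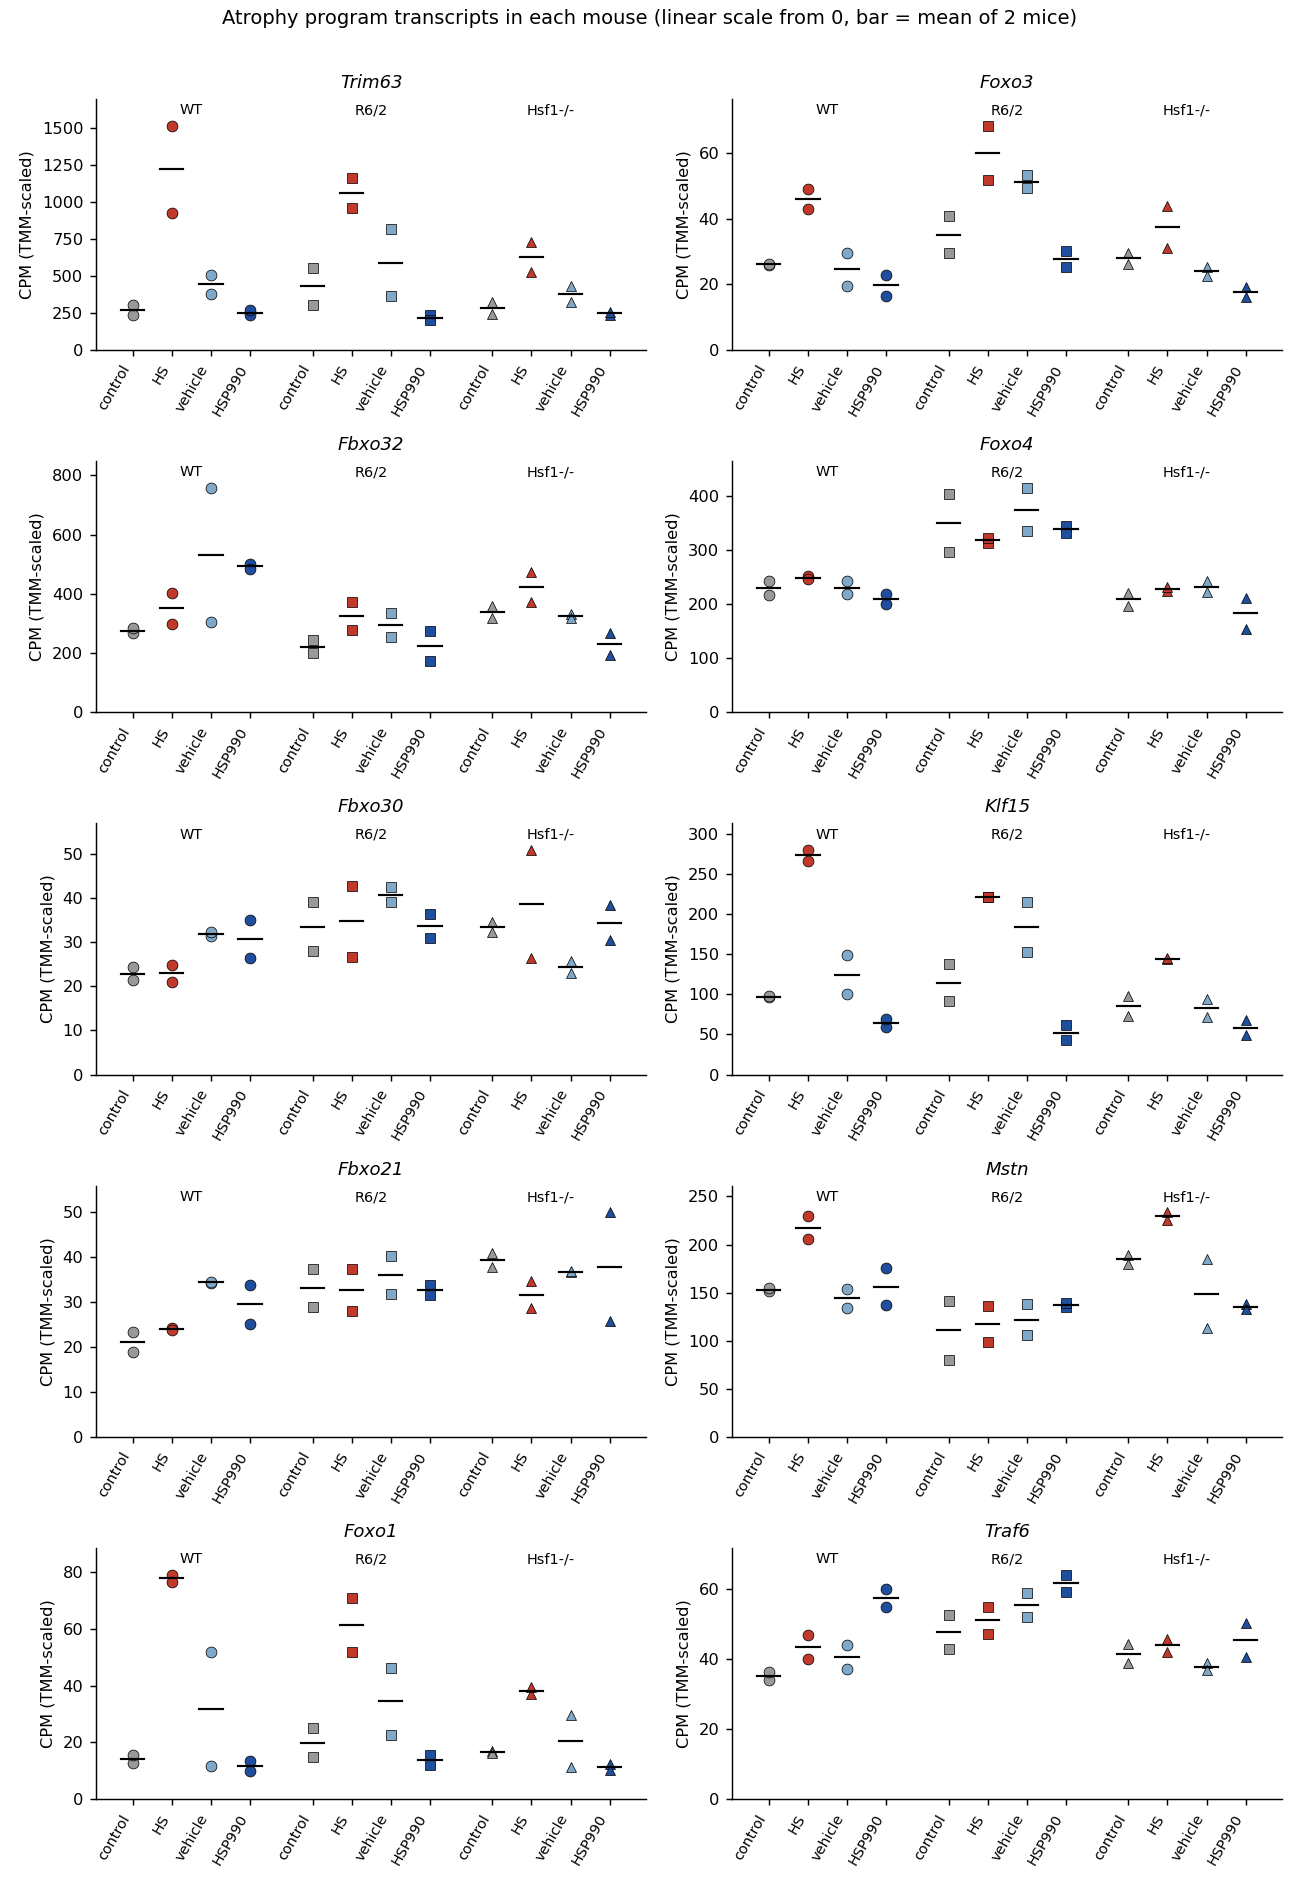
Level of each of the 10 members (vertical axes, TMM-scaled CPM, linear from 0) in each of the 24 mice, by treatment (horizontal axes and colour) and genotype (circles WT, squares R6/2, triangles Hsf1-/-), with bars at the mean of 2 mice. Trim63, Foxo1 and Klf15 stood highest in WT HS mice, with means of 1224, 77.68 and 272.8 CPM, while Fbxo32 was highest in WT vehicle mice (530.8 CPM) and Foxo4 was higher in every R6/2 mouse than in any other mouse.

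In R6/2 mice 0 of 10 members were called after HS, in a comparison that called 0.0436% of all genes with edgeR's quasi-likelihood test. DESeq2 called 2 members (Trim63, adjusted p = 0.016, and Klf15, 0.025), and 1117 genes had an unadjusted p below 0.05. Trim63 had 557.3 and 302.4 CPM in control and 958.8 and 1165 CPM in HS mice, so that the groups did not overlap (log2 change 1.30 ± 0.34, adjusted p = 0.21). Foxo1 had 25.04 and 14.81 CPM against 70.68 and 51.89 CPM (1.62 ± 0.52, adjusted p = 0.32). Klf15 had 137.9 and 91.32 CPM against 220.5 and 220.7 CPM (0.94 ± 0.25, adjusted p = 0.19). These 3 genes and Foxo3 (0.78 ± 0.22, adjusted p = 0.25) and Fbxo32 (0.54 ± 0.32, adjusted p = 0.69) were higher in both HS mice than in both controls. The other members overlapped between the groups. The share of all genes without overlap was not counted, so these separations are not read as a result about the members.

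In Hsf1-/- mice 0 of 10 members were called after HS as well, beside 0.00727% of all genes, which is 1 gene. DESeq2 called 1 member (Trim63), a fit of the 4 libraries compared called 1 (Foxo1, adjusted p = 0.016), and 1211 genes had an unadjusted p below 0.05. Trim63 had 323.9 and 246.7 CPM in control and 730.3 and 530.5 CPM in HS mice, with 2.21 times the mean (log2 change 1.14 ± 0.34, adjusted p = 0.23). Foxo1 had 16.96 and 16.16 CPM against 36.88 and 39.49 CPM (1.21 ± 0.52, adjusted p = 0.5), and Klf15 had 98.3 and 72.31 CPM against 143.6 and 145.3 CPM (0.76 ± 0.25, adjusted p = 0.28). For all 3 both HS mice were above both controls. In the same mice Hspa1a had a log2 change of -0.17 ± 0.62 (adjusted p = 0.98), beside 7.11 ± 0.63 in WT mice.

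Whether HS acted on the members to a different extent in the genotypes was tested as an interaction. None of the 10 members was called for R6/2 against WT mice, beside 0.0727% of all genes, nor for Hsf1-/- against WT mice, beside 0.16%, by edgeR's quasi-likelihood test or DESeq2. Over all genes 669 and 511 had an unadjusted p below 0.05. The response of Trim63 was lower than in WT mice by 0.88 ± 0.48 on the log2 scale in R6/2 mice and by 1.04 ± 0.48 in Hsf1-/- mice. For Foxo1 the difference was -0.84 ± 0.72 in R6/2 and -1.26 ± 0.73 in Hsf1-/- mice, and for Klf15 it was -0.55 ± 0.34 and -0.73 ± 0.35. All of these had an adjusted p of 0.99 or 1.0, so that neither a difference nor its absence was shown. Both differences share the WT mice. A fit of only the 8 libraries compared called Foxo1 in the Hsf1-/- comparison (adjusted p = 0.019).

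The inhibitor HSP990 lowered Klf15 and Trim63 in R6/2 mice. These 2 of 10 members were called, both lower, beside 1.43% of all genes, and the members had a median log2 change of -0.34, beside 0.01 for all genes. Klf15 had 152.8 and 214.6 CPM in vehicle mice and 61.23 and 42.96 CPM in HSP990 mice, and fell by 1.82 ± 0.25 on the log2 scale (adjusted p = 0.00084). Trim63 had 365.9 and 816.8 CPM in vehicle and 237.3 and 200.1 CPM in HSP990 mice, and fell by 1.44 ± 0.35 (adjusted p = 0.049). The vehicle mice differed by more than the lower of them differed from the treated mice, and without R6/2 vehicle replicate 2, the higher, the log2 change of Trim63 was -0.74 (adjusted p = 0.57). The call was also lost without either HSP990 mouse (0.24 and 0.28) and in a fit of the 4 libraries compared (0.3). Klf15 stayed called whichever of the 4 mice was left out, with log2 changes of -2.10 to -1.55, and had an adjusted p of 0.092 in the fit of the 4 libraries. Foxo3 had 49.42 and 53.24 CPM in vehicle and 30.13 and 25.15 CPM in HSP990 mice, with no overlap (-0.89 ± 0.23, adjusted p = 0.064), and Foxo1 had 22.68 and 46.2 CPM against 12.17 and 15.52 CPM (-1.31 ± 0.52, adjusted p = 0.38). Fbxo32, with 255.2 and 336.4 CPM against 273.2 and 172.2 CPM, overlapped (-0.41 ± 0.32, adjusted p = 0.81). All 10 fibre markers were higher in HSP990 mice, summing to 50150 to 57400 CPM in vehicle and 58450 to 101700 CPM in HSP990 mice. The sums of satellite cell markers (28.41 to 30.22 against 22.42 to 22.56 CPM) and of macrophage and leukocyte markers (24.02 to 29.98 against 20.67 to 21.77 CPM) were lower. None of these markers was called, and their part in the members' values was not tested.

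In WT mice 0 of 10 members were called after HSP990 with edgeR's quasi-likelihood test, beside 1.85% of all genes; DESeq2 called 2 (Klf15 and Traf6), and 1816 genes had an unadjusted p below 0.05. Klf15 had 100.2 and 148.6 CPM in vehicle and 59.08 and 69.41 CPM in HSP990 mice, apart from each other (log2 change -0.95 ± 0.25, adjusted p = 0.06). Without WT vehicle replicate 1 it was called (-1.21, adjusted p = 0.042), together with Foxo1. Trim63 had 508.3 and 381.0 CPM against 234.0 and 269.5 CPM (-0.82 ± 0.34, adjusted p = 0.3). Foxo1 overlapped, with 11.55 and 51.84 CPM in vehicle and 10.03 and 13.36 CPM in HSP990 mice (-1.44 ± 0.53, adjusted p = 0.22). Traf6, a ligase of inflammatory signalling that is also needed for atrophy after denervation, had 44.0 and 37.11 CPM against 60.07 and 54.91 CPM, higher in both treated mice (0.50 ± 0.15, adjusted p = 0.095). Fbxo32 had 757.9 and 303.7 CPM in vehicle and 500.4 and 485.0 CPM in HSP990 mice, with the treated mice between the untreated ones (-0.11 ± 0.32, adjusted p = 0.92). All 5 fibroblast markers were higher in HSP990 mice, summing to 740.7 to 742.7 CPM in vehicle and 1225 to 1236 CPM in HSP990 mice, as were all 5 macrophage and leukocyte markers (18.69 to 19.12 against 22.15 to 40.97 CPM). The sums were also higher without overlap for endothelial (310.0 to 396.6 against 478.1 to 536.4 CPM), smooth muscle (155.2 to 182.3 against 192.8 to 198.7 CPM) and Schwann cell markers (70.86 to 74.37 against 88.82 to 96.67 CPM). None of these markers was called, and their part in the members' values was not tested.

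In Hsf1-/- mice 0 of 10 members were called after HSP990, with edgeR's quasi-likelihood test or with DESeq2, beside 0.218% of all genes, and 1304 genes had an unadjusted p below 0.05. Trim63 had 430.7 and 322.9 CPM in vehicle and 239.3 and 255.6 CPM in HSP990 mice (log2 change -0.61 ± 0.34, adjusted p = 0.62), Klf15 94.02 and 72.19 CPM against 48.9 and 67.39 CPM (-0.52 ± 0.25, adjusted p = 0.53). Both genes were lower in both treated mice. So were Fbxo32 (-0.50 ± 0.32), Foxo3 (-0.45 ± 0.23) and Foxo4 (-0.345 ± 0.156). Fbxo30 (0.50 ± 0.26) and Traf6 (0.27 ± 0.15) were higher in both, and these members had adjusted p of 0.51 to 0.67. The genotypes' responses to HSP990 were not called as different for any member: the R6/2 comparison called 0.0% of all genes, with 981 at an unadjusted p below 0.05, and the Hsf1-/- comparison 0.422%, and DESeq2 called no member in either. For Klf15 the response in R6/2 mice differed from that in WT mice by -0.87 ± 0.35 (adjusted p = 0.62) and that in Hsf1-/- mice by 0.44 ± 0.35 (adjusted p = 0.88). After HSP990 in Hsf1-/- mice the sums of fibre markers (280900 to 303300 against 221600 to 244700 CPM) and satellite cell markers (19.72 to 24.44 against 13.68 to 17.78 CPM) were lower without overlap. The sum of endothelial markers was higher (477.0 to 478.4 against 500.1 to 529.2 CPM). Their part in the members' values was not tested.

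**Figure D2:**
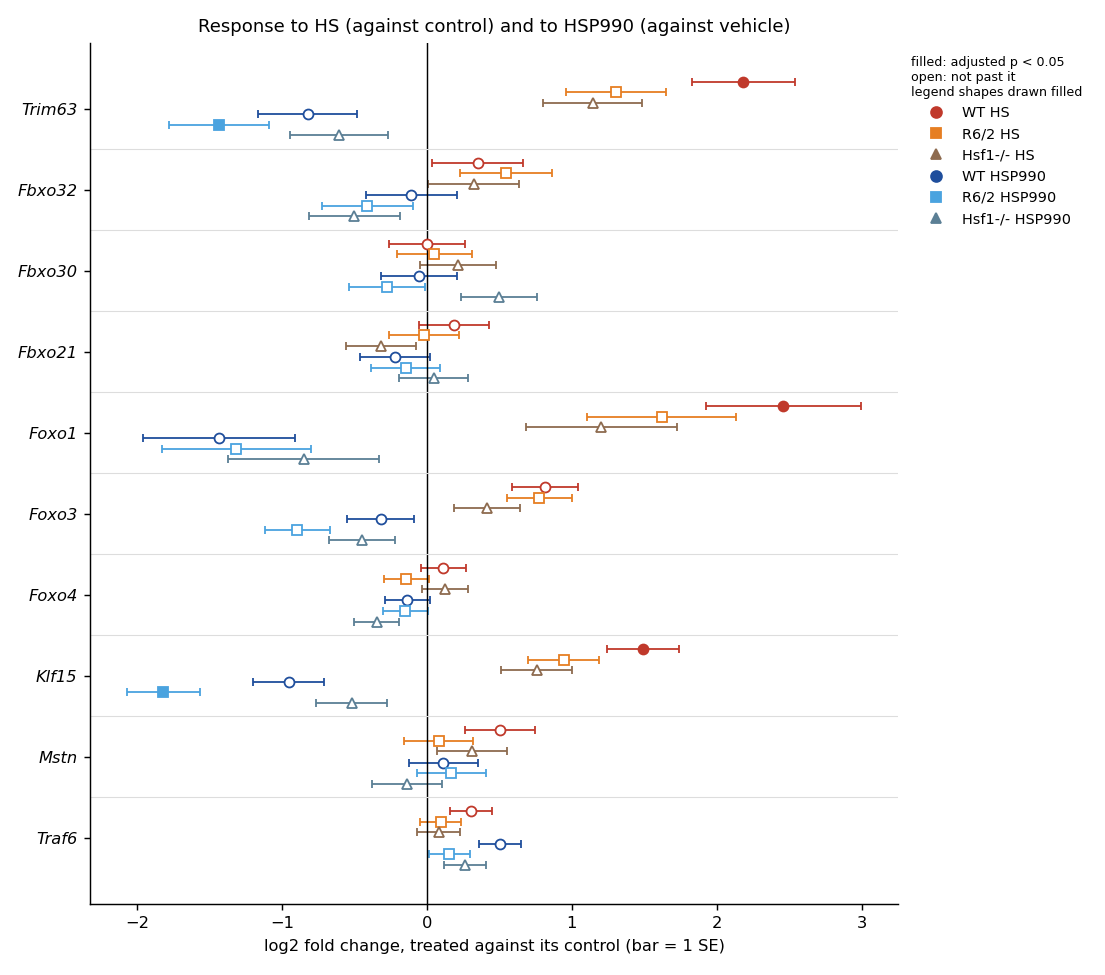
Log2 fold change ± 1 SE (horizontal axis) of the 10 members (rows) after HS, in red and brown shades, and after HSP990, in blue shades, for WT (circles), R6/2 (squares) and Hsf1-/- mice (triangles). Filled symbols passed an adjusted p of 0.05 with edgeR's quasi-likelihood test: Trim63 (2.18), Foxo1 (2.46) and Klf15 (1.49) in WT mice after HS, and Trim63 (-1.44) and Klf15 (-1.82) in R6/2 mice after HSP990.

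The same genes therefore lay on opposite sides of 0 in the HS and HSP990 comparisons, and the difference between the responses was tested directly. Each response was taken against its own untreated group. For Trim63 these groups differed in WT mice, with 235.9 and 302.7 CPM in control and 508.3 and 381.0 CPM in vehicle mice. In WT mice 3 of 10 members had a higher response to HS than to HSP990, beside 2.38% of all genes called: Foxo1 by 3.90 ± 0.75 on the log2 scale (adjusted p = 0.0096), Trim63 by 3.00 ± 0.49 (adjusted p = 0.0045) and Klf15 by 2.44 ± 0.35 (adjusted p = 0.0022). Foxo1 was lost without WT control replicate 1 (0.063), WT HSP990 replicate 1 (0.052) or WT vehicle replicate 2, without which its difference was 2.44 (adjusted p = 0.079). In R6/2 mice 3 members were called, beside 1.63% of all genes: Klf15 by 2.76 ± 0.35 (adjusted p = 0.001), Trim63 by 2.74 ± 0.49 (adjusted p = 0.0061) and Foxo3 by 1.67 ± 0.32 (adjusted p = 0.0092). Foxo3 was lost without R6/2 control replicate 2 (0.075), R6/2 HS replicate 1 (0.054) or R6/2 HSP990 replicate 2 (0.062), and a fit of the 8 libraries compared called Klf15 only. Foxo1 had a difference of 2.93 ± 0.73 there (adjusted p = 0.053). In Hsf1-/- mice 0 members were called, beside 0.145% of all genes (1494 at an unadjusted p below 0.05), with Foxo1 at 2.05 ± 0.74, Trim63 at 1.75 ± 0.48 and Klf15 at 1.28 ± 0.35 (adjusted p of 0.17 to 0.32), while DESeq2 called Trim63 and Klf15. Fbxo32 had differences of 0.46 ± 0.45, 0.95 ± 0.45 and 0.82 ± 0.45 in WT, R6/2 and Hsf1-/- mice (adjusted p = 0.69, 0.47 and 0.53).

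Across the 24 mice Trim63 ran with Klf15 (Pearson r = 0.917 of log2 CPM) and with Foxo1 (0.843) and less with its usual partner Fbxo32 (0.316). These mice share treatments and experiments, so the coefficients describe the pattern only. Trim63 had its highest mean in WT HS mice (1224 CPM) and its lowest in R6/2 HSP990 mice (218.7 CPM), a ratio of 5.6. Between neighbours in the order of the 12 group means, only R6/2 HS over Hsf1-/- HS mice and Hsf1-/- HSP990 over R6/2 HSP990 mice did not overlap. Foxo1 ran from 77.68 CPM in WT HS mice to 11.34 CPM in Hsf1-/- HSP990 mice, a ratio of 6.85. Klf15 ran from 272.8 to 52.1 CPM, a ratio of 5.24, between the same groups as Trim63. In all 3 genes the HS groups stood in the order WT, R6/2 and Hsf1-/-, which for Foxo1 and Klf15 did not overlap. Fbxo32 had a range of only 2.39 times, from WT vehicle mice (530.8 CPM) to R6/2 control mice (221.9 CPM).

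**Figure D3:**
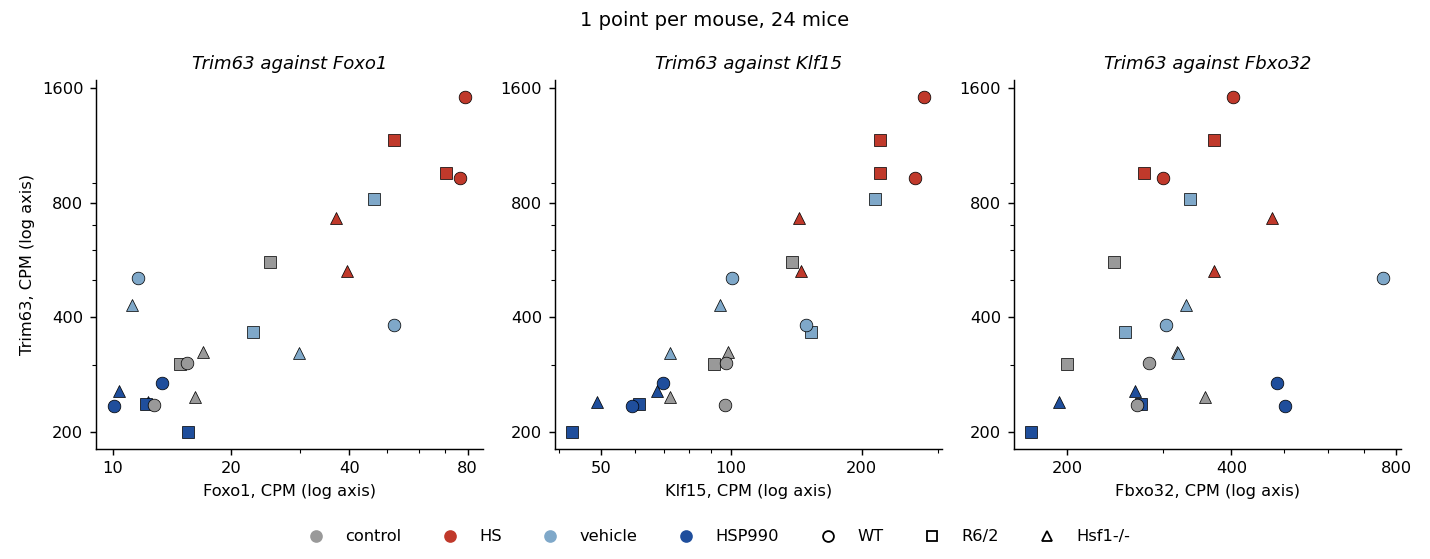
Level of Trim63 (vertical axis, CPM, log axis) against that of Foxo1, Klf15 and Fbxo32 (horizontal axes, CPM, log axes) in 24 mice, coloured by treatment, with circles for WT, squares for R6/2 and triangles for Hsf1-/- mice. The points line up for Foxo1 (r = 0.843) and Klf15 (r = 0.917) from the HSP990 mice at the lower left to the HS mice at the upper right, and scatter for Fbxo32 (r = 0.316).

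The genes with a pattern most like that of Trim63, by Pearson's r of log2 CPM over the 24 libraries among 11101 other genes, were Nfkbia (0.938), Sphk1 (0.934) and Arl4d (0.925). Klf15 was most like Nfkbia (0.948), Sema7a (0.922) and Trim63 itself, and Foxo1 was most like Usp54 (0.927), Mt1 (0.921) and Wbp1l (0.916). The nearest genes to Fbxo32 were more distant, namely Slc19a2 (0.766), Gpr157 (0.725) and Klhl21 (0.701). For Mstn they were 6030458C11Rik (0.784), Ube2t (0.756) and Padi2 (0.742).

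Untreated R6/2 mice had more Foxo3, Foxo4 and Traf6 transcript than WT mice, taking control and vehicle mice together (n = 4 per genotype). These 3 of 10 members were called, all higher, in a comparison that called 30.5% of all genes, so that their share was near the background. Foxo4, the FoxO gene with the highest level per length here, had 404.0, 295.5, 334.5 and 414.6 CPM in R6/2 mice and 241.7, 217.1, 218.5 and 241.8 CPM in WT mice. It was the only member without overlap, with a log2 difference of 0.66 ± 0.11 (adjusted p = 0.0003), and was higher in both experiments, by 0.61 ± 0.16 in control mice (adjusted p = 0.018) and by 0.70 ± 0.16 in vehicle mice (adjusted p = 0.0048). The control mice alone called 12.4% of all genes and the vehicle mice 19.2%. Foxo3 had 40.77, 29.4, 49.42 and 53.24 CPM against 25.99, 26.31, 19.45 and 29.62 CPM (0.74 ± 0.16, adjusted p = 0.002). Most of this lay in the vehicle mice, where the difference was 1.06 ± 0.23 (adjusted p = 0.0036) beside 0.42 ± 0.23 in control mice (adjusted p = 0.24). Traf6 had 52.68, 42.85, 51.89 and 58.81 CPM against 34.04, 36.35, 44.0 and 37.11 CPM (0.44 ± 0.10, adjusted p = 0.0035), with 0.44 ± 0.14 in control mice (adjusted p = 0.058) and 0.45 ± 0.14 in vehicle mice (adjusted p = 0.039). All 3 stayed called whichever of the 8 mice was left out, but within 1 experiment some calls rested on single mice. In control mice Foxo4 was lost without R6/2 replicate 1 (0.3), WT replicate 1 (0.064) or WT replicate 2 (0.14), and in the fit of the 4 libraries compared (0.11). In vehicle mice Foxo4 was lost without R6/2 replicate 2 (0.064) or WT replicate 1 (0.058), Foxo3 without WT replicate 1 (0.066), and Traf6 whichever of the 4 mice was left out (0.055 to 0.27).

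The other 7 members, among them Trim63, Fbxo32 and Mstn, were not called in untreated R6/2 mice. Trim63 had 557.3, 302.4, 365.9 and 816.8 CPM in R6/2 and 235.9, 302.7, 508.3 and 381.0 CPM in WT mice, which overlapped (log2 difference 0.54 ± 0.24, adjusted p = 0.099). It passed the test when R6/2 control replicate 2 was left out (0.73, adjusted p = 0.033), and also without R6/2 vehicle replicate 1 (0.78, adjusted p = 0.017). Fbxo32 lay the other way, with 243.4, 200.4, 255.2 and 336.4 CPM against 268.2, 283.0, 757.9 and 303.7 CPM (-0.58 ± 0.22, adjusted p = 0.06). Its WT vehicle mouse of 757.9 CPM was replicate 1, and without WT vehicle replicate 2 the difference was called (-0.84, adjusted p = 0.0029), as it was by DESeq2 (adjusted p = 0.028), while without replicate 1 it was -0.18 (adjusted p = 0.52). Mstn had 80.23, 141.2, 138.0 and 106.1 CPM against 151.9, 154.5, 154.3 and 134.0 CPM (-0.35 ± 0.17, adjusted p = 0.13). Fbxo30, the MUSA1 ligase gene, had a difference of 0.45 ± 0.19 (adjusted p = 0.076), Klf15 of 0.40 ± 0.17 (adjusted p = 0.09), Fbxo21 of 0.36 ± 0.17 (adjusted p = 0.12) and Foxo1 of 0.31 ± 0.36 (adjusted p = 0.56). Leaving out R6/2 control replicate 2 gave 7 members called and leaving out WT vehicle replicate 2 gave 6.

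All 10 fibre markers fell in the same comparison, with a median log2 difference of -1.84, and the share of counts held by the top 20 genes was 14.7% to 21.9% in R6/2 mice and at least 32.7% in every other mouse. The part of this in the members' differences was not tested. Scaled by library size only, the median of all genes moved from 0.05 to 0.66 and 8 members were called higher. Relative to that median Foxo3 was at 0.70, Foxo4 at 0.61, Traf6 at 0.40 and Fbxo32 at -0.62. In whole muscle fewer cells of a type and less RNA per cell cannot be told apart. Satellite cell markers summed to 22.42 to 40.71 CPM in R6/2 and 13.68 to 24.99 CPM in the other mice, with 2 of 4 called higher, and of 5 adipocyte markers all were lower and 1 was called.

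**Figure D4:**
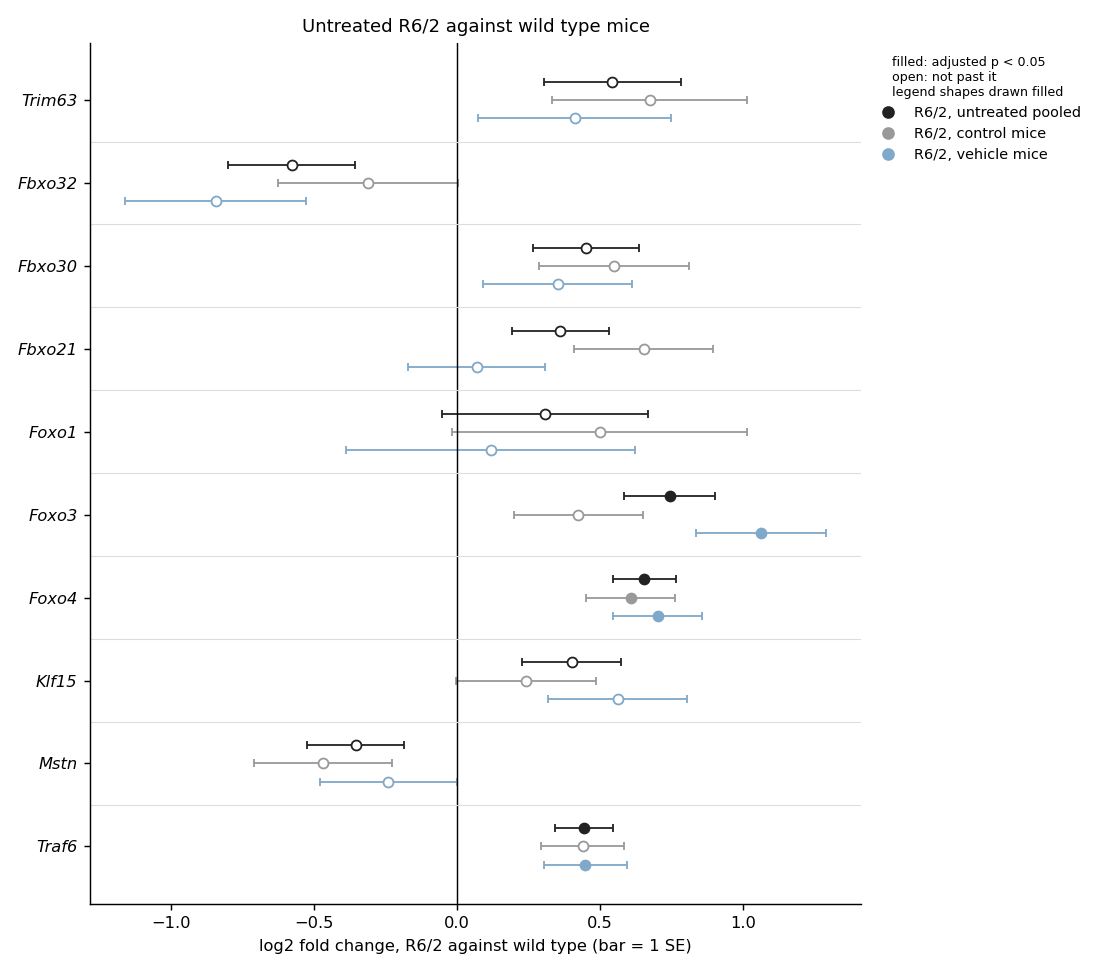
Log2 fold change ± 1 SE (horizontal axis) of the 10 members (rows) in untreated R6/2 against WT mice, for control and vehicle mice together (black), control mice (grey) and vehicle mice (blue); filled symbols passed an adjusted p of 0.05. Foxo4 was filled in all 3 comparisons (0.66, 0.61 and 0.70), Foxo3 and Traf6 in the pooled and the vehicle mice, and Fbxo32 and Mstn lay below 0.

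Untreated Hsf1-/- mice did not differ from WT mice in any member by the test, beside 0.974% of all genes called (1991 at an unadjusted p below 0.05, and 0 members with DESeq2). The largest difference was that of Fbxo21, which encodes an F-box protein linked to denervation atrophy, with 37.9, 40.88, 36.63 and 36.95 CPM in Hsf1-/- and 23.29, 18.96, 34.27 and 34.51 CPM in WT mice. The groups did not overlap, with a log2 difference of 0.50 ± 0.17 (adjusted p = 0.2), and a fit of only these libraries called it (adjusted p = 0.046). Within the experiments the difference was 0.90 ± 0.24 in control mice (adjusted p = 0.068), where 0 of 10 members were called beside 1.93% of all genes (2520 at an unadjusted p below 0.05), and 0.10 ± 0.24 in vehicle mice (adjusted p = 0.95), where 0 members were called beside 0.0872% (1259 at an unadjusted p below 0.05). In the control mice DESeq2 called Fbxo21 (adjusted p = 0.0084), and the fit of only those 4 libraries called it (0.019) and Fbxo30. Klf15 had a difference of -0.38 ± 0.17 (adjusted p = 0.33), Fbxo32 of -0.21 ± 0.22 (adjusted p = 0.72) and Trim63 of -0.08 ± 0.24 (adjusted p = 0.93).

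Other genes of the pathways around the members were counted from lists. Among 18 tested FoxO targets and atrophy-linked genes HS raised 5 in WT mice, beside 2.06% of all genes called (16 were higher, median log2 change 0.40). Ddit4, an inhibitor of mTORC1, rose by 5.71 (adjusted p = 0.0047), Pdk4, which restrains glucose oxidation, by 2.98 (adjusted p = 0.0017) and Cdkn1a, the cell cycle inhibitor p21, by 2.44 (adjusted p = 0.035). Ddit4 had 8.14 to 10.9 CPM in control and 492.2 to 505.5 CPM in HS mice. In R6/2 mice 3 genes of this list fell with HSP990, beside 1.43% of all genes called, led by Ddit4 (-4.77, adjusted p = 0.014) and Cdkn1a (-2.66, adjusted p = 0.026). There Ddit4 had 50.15 and 281.0 CPM in vehicle and 4.987 and 7.091 CPM in HSP990 mice. In WT mice none of the 18 was called after HSP990, nor in Hsf1-/- mice after either treatment. The difference between the responses to HS and HSP990 was called higher for 4 of 18 in WT mice, beside 2.38% of all genes called, and for 3 of 18 in R6/2 mice, beside 1.63%, in both led by Ddit4 (7.97, adjusted p = 0.0044, and 7.16, adjusted p = 0.0051).

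Of 9 genes of the glucocorticoid receptor and KLF15 branch, 2 rose after HS in WT mice, beside 2.06% of all genes called, namely Arrdc2 (3.51, adjusted p = 0.013) and Tsc22d3, which encodes GILZ (1.57, adjusted p = 0.002). HSP990 lowered 3 in WT mice, beside 1.85% of all genes called, and 5 in R6/2 mice, beside 1.43%, with a median log2 change of the list of -0.47 and -1.19. Arrdc2 fell in WT mice (-4.64, adjusted p = 0.0027) and in R6/2 mice (-3.62, adjusted p = 0.014). Fkbp5, a co-chaperone of the glucocorticoid receptor and its target, fell likewise in both (-3.58, adjusted p = 0.012, and -3.54, adjusted p = 0.013). In 3 of the 6 untreated groups the mice of a group differed widely in Fkbp5, and the mouse with more Fkbp5 also had more Foxo1. Fkbp5 had 98.42 and 372.1 CPM in WT vehicle mice, where Foxo1 had 11.55 and 51.84 CPM, and 76.37 and 299.1 CPM in Hsf1-/- vehicle mice, where Foxo1 had 11.21 and 29.68 CPM. In R6/2 control mice Fkbp5 had 402.2 and 132.1 CPM and Foxo1 25.04 and 14.81 CPM. In R6/2 vehicle mice they lay the other way, with 301.3 and 245.6 CPM of Fkbp5 and 22.68 and 46.2 CPM of Foxo1. Trim63 was lower in the mouse with more Fkbp5 in WT vehicle (508.3 and 381.0 CPM) and Hsf1-/- vehicle mice (430.7 and 322.9 CPM). So was Klf15 in Hsf1-/- vehicle mice (94.02 and 72.19 CPM). Klf15 in WT vehicle mice and both genes in R6/2 control mice were higher in the mouse with more Fkbp5. The part of this variation in the treatment effects was not tested. Sesn2, which restrains mTORC1 in stress, rose after HSP990 in Hsf1-/- mice from 3.778 to 4.096 CPM to 57.23 to 92.44 CPM (log2 change 4.25, adjusted p = 8e-07), and this response differed from that in WT mice by 3.69 (adjusted p = 5.4e-05).

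Among 20 other ligase and ubiquitin genes tested, HS called none in any genotype, beside 2.06% of all genes in WT, 0.0436% in R6/2 and 0.00727% in Hsf1-/- mice. HSP990 lowered Cblb, the ligase gene for IRS1, in WT (-0.95, adjusted p = 0.021) and R6/2 mice (-0.86, adjusted p = 0.035), beside 1.85% and 1.43% of all genes called. In untreated R6/2 mice 4 were higher and 8 lower, among them Asb2 (-0.80, adjusted p = 0.0014), Zfand5 (-0.67, adjusted p = 0.0013) and the polyubiquitin gene Ubb (0.65, adjusted p = 0.00025). Of the FoxO targets and other atrophy-linked genes, 10 of 18 were higher and none lower in these mice. Ddit4 (2.69, adjusted p = 0.0028), Cdkn1a (2.61, adjusted p = 0.00016) and Runx1 (2.39, adjusted p = 2.4e-05) led this list. Ddit4 had 98.14, 14.69, 50.15 and 281.0 CPM in R6/2 mice and 8.14, 10.9, 16.35 and 30.98 CPM in WT mice, which overlapped. Among 17 genes of the insulin, IGF and energy inputs 4 were higher and 5 lower, led by the AMPK subunit gene Prkaa2 (-1.59, adjusted p = 0.00087), Sgk1 (-1.47, adjusted p = 7.8e-05) and Foxo6 (-1.20, adjusted p = 0.0063). In the glucocorticoid and KLF15 branch 3 of 9 were lower, with the amino acid enzyme genes Gpt (-1.08, adjusted p = 0.00031), Prodh (-0.76, adjusted p = 0.013) and Bcat2 (-0.38, adjusted p = 0.036). These counts stand beside 30.5% of all genes called.

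Of 17 genes of the insulin, IGF and energy list only Ppargc1a, the PGC-1α coactivator gene that opposes FoxO3, was called after HS, in WT (2.04, adjusted p = 0.013) and in Hsf1-/- mice (3.12, adjusted p = 0.016). In Hsf1-/- mice it was the only gene called in the whole table with edgeR's quasi-likelihood test on all libraries, where DESeq2 called 161 genes, the fit of only the libraries compared 98, no filter 28 and a replicate block 9. HSP990 lowered Sgk1 (-1.43, adjusted p = 0.021) and raised Irs2 (1.23, adjusted p = 0.038) in WT mice. Of 16 genes of the myostatin and activin pathway HS raised Inhbb, an activin subunit gene (2.28, adjusted p = 0.029), and the type I receptor gene Acvr1b (0.85, adjusted p = 0.026) in WT mice. Acvr1b fell with HSP990 in WT (-1.13, adjusted p = 0.004) and R6/2 mice (-0.84, adjusted p = 0.032). In untreated R6/2 mice 3 of the 16 were higher, among them the myostatin antagonist gene Fstl3 (1.18, adjusted p = 0.021) and the protease gene Furin (0.97, adjusted p = 1.5e-05), and Smad3 was lower (-0.96, adjusted p = 0.003). Of 21 genes of the TRAF6, TNF and IL6 inputs only Nfkbia, the inhibitor of NF-κB, was called after HS in WT mice (2.03, adjusted p = 0.013) and after HSP990 in R6/2 mice (-2.19, adjusted p = 0.0096). In untreated R6/2 mice 6 of the 21 were higher, led by Il6ra (1.70, adjusted p = 0.0032), Nfkbia (0.98, adjusted p = 0.013) and Myd88 (0.85, adjusted p = 0.0061), and 2 were lower. With 30.5% of all genes called in that comparison, the counts from this list and from the myostatin list were near the background. In untreated Hsf1-/- mice Pdk4 was higher (1.34, adjusted p = 0.042), and Ubb (-0.47, adjusted p = 0.046) and Bcat2 (-0.61, adjusted p = 0.038) were lower, beside 0.974% of all genes called. The calls from the insulin, myostatin and TRAF6 lists after HS stand beside 2.06% of all genes in WT and 0.00727% in Hsf1-/- mice. Those after HSP990 stand beside 1.85% in WT and 1.43% in R6/2 mice.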

How the data were processed

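PolyA RNA of quadriceps femoris from 24 mice was sequenced as paired-end, strand-specific libraries. The authors mapped reads to mm9 with Bowtie and deposited raw counts per gene for each library. The counting program, its strand setting and its annotation are not given in the sources used here, so reads of overlapping genes may be shared. Of 18669 gene IDs, 18594 were matched to a symbol. Groups were taken from the labels, with 2 mice in each of 12 groups, and library totals were 22450177 to 46599238 counts.

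The 13754 genes having 2 or more counts in 10 or more libraries were tested with edgeR 4.0.16 (glmQLFit and glmQLFTest, limma 3.58.1, R 4.3.3) on 12 group means, with TMM scaling and 12 residual degrees of freedom. P-values were adjusted by Benjamini-Hochberg within each of 19 contrasts and called at 0.05. CPM and motifs were computed in Python 3.11.15 with pandas 2.3.3, and a pseudocount of 0.5 CPM was added before the log2 used for correlations. The procedure was tested on simulated data, with 200 changes planted in WT HS mice. Of planted log2 changes of 1 in size 27% were called, and of those of 2 in size 67%. Of 100 genes called, 6 were false. Changes of such sizes can therefore go uncalled. Alternatives were RLE factors, library size only, no filter, a replicate block, only the libraries compared, DESeq2 1.42.0 and leaving out each library. A crossed replicate block was chosen after seeing the data.

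All 10 members were named in full. From each pathway list up to 3 called genes per comparison with the largest change were eligible, and for 5 members the 3 genes with the highest Pearson r. Members and lists were chosen with earlier results of these data known.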

Additional observations from a re-analysis of the deposited data

Results flagged for a closer look

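Fbxo21, the gene of an F-box subunit of a ubiquitin ligase, lay on opposite sides in the HS responses of WT and Hsf1-/- mice. WT mice had 23.29 and 18.96 CPM in control and 24.24 and 23.83 CPM after HS, and Hsf1-/- mice had 37.9 and 40.88 CPM in control and 28.67 and 34.61 CPM after HS. Both HS mice were above both controls in WT and below both in Hsf1-/- mice, although the nearest WT mice had 23.29 and 23.83 CPM. Fbxo21 was found by searching all members for such opposite separations or a called difference between genotypes. The share of all genes that would meet this rule was not counted. Tested as an interaction, the response in Hsf1-/- mice minus that in WT mice was -0.50 on the log2 scale (adjusted p = 1.0 with edgeR's quasi-likelihood test, n = 2 per group).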

How the results depend on the processing

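Of 840 values recomputed under another setting, 718 were classed as unchanged, and no called value changed sign. The 840 values include counts of members called, which have no direction. A small change in such a count could still be classed as unchanged. Of 2290 single member values under another setting 139 had the other sign, none of them called as reported. With only the libraries compared, 5 members in place of 3 were called for HS in WT mice, 1 in place of 0 for HS in Hsf1-/- mice, for untreated Hsf1-/- against WT mice and for the HS response of Hsf1-/- minus WT mice, 0 in place of 2 for HSP990 in R6/2 mice, 1 in place of 3 for the HS minus HSP990 response in R6/2 mice, 0 in place of 1 for R6/2 against WT control mice, and 2 in place of 3 for R6/2 against WT vehicle mice. DESeq2 called 2 in place of 0 for HS in R6/2 mice, for HSP990 in WT mice and for the HS minus HSP990 response in Hsf1-/- mice, 1 in place of 0 for HS in Hsf1-/- mice, and 3 in place of 1 for R6/2 against WT control mice. Without the filter 1 member in place of 0 was called for HSP990 in WT mice, and scaled by library size only 8 in place of 3 for untreated R6/2 mice, 7 in place of 1 for R6/2 against WT control mice and 7 in place of 3 for R6/2 against WT vehicle mice. Over all genes, the fit of only the libraries compared called 8 in place of 197 for HSP990 in R6/2 mice. For HS in WT mice it called 598 in place of 283. The cause of these changes was not tested.

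With the replicate number as a block, 1 member in place of 2 was called for HSP990 in R6/2 mice (Trim63, adjusted p = 0.055), and no other count of members moved by more than 1.5 times. Deviations of same-numbered mice correlated at -0.197 to 0.239, and the labels give no shared origin, so the numbers were not taken to pair the mice. The crossed block, chosen after seeing the data, called 3, 0 and 0 members for HS in WT, HS in R6/2 and HSP990 in Hsf1-/- mice.

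Leaving out each library in turn gave 0 to 2 members for HS in WT mice, 0 to 2 for HSP990 in WT mice, 1 to 2 for HSP990 in R6/2 mice, 3 to 7 for untreated R6/2 mice, 2 to 4 for the HS minus HSP990 response in WT and in R6/2 mice, 0 to 3 for R6/2 against WT control mice and for R6/2 against WT vehicle mice, and 0 in the other comparisons. The lone mouse was then assumed to vary like the other groups. With 2 mice per group the spread between mice, more than the counts behind each value, limits these comparisons.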

Other observations

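Untreated WT mice of the HS experiment (control) and of the HSP990 experiment (vehicle) had different levels of several atrophy-linked genes, which were not compared by a test because treatment, anesthesia and experiment differ together, as do the summed counts of 4 Y-linked genes (0 in control and 4612 to 4870 in vehicle mice). Pdk4 had 278.0 to 377.7 CPM in WT control mice and 1930 to 2155 CPM in WT vehicle mice, which is near the 1892 to 3267 CPM of WT HS mice. Fbxo21 had 18.96 to 23.29 CPM in control and 34.27 to 34.51 CPM in vehicle mice, and Fbxo30 had 21.5 to 24.3 CPM and 31.5 to 32.34 CPM. Trim63 had 235.9 to 302.7 CPM in control and 381.0 to 508.3 CPM in vehicle mice, beside 234.0 to 269.5 CPM in WT HSP990 mice. Klf15 had 96.55 to 97.41 CPM and 100.2 to 148.6 CPM. Fbxo32 and Traf6 were also higher in vehicle mice without overlap, while Foxo1, Foxo3, Foxo4 and Mstn overlapped. The part of these differences in the HS minus HSP990 comparison was not tested.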
